A study of Mus musculus with 6 samples.

Results

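Cytochrome P450 genes (Cyp genes) were followed in mouse 3T3-L1 cells kept as controls or given chronic intermittent hypoxia (CIH). The set held every protein-coding gene of GENCODE mouse release 21 that was present in all 6 deposited files and had a symbol of Cyp followed by a digit, without the sterol demethylase Cyp51. These were 99 of the 21769 gene IDs shared by the 6 files. The choice rests on gene names and not on measured values.

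3T3-L1 is a mouse fibroblast line that turns into adipocytes after hormonal induction. The labels give all 6 libraries as wild-type 3T3-L1 adipocytes, 3 with the treatment control and 3 with chronic intermittent hypoxia, which means repeated spells of low oxygen. Both groups shared DMEM with 10% serum at 5% CO2, insulin induction for 2 days, and maintenance medium with 0.1 µM insulin until day 8. The sources used here give no oxygen level or cycle length and do not say that replicates came from separate cultures. The p-values therefore reflect library-to-library spread, possibly only technical. Levels are FPKM, which scales fragments by gene length and by the size of the library, and are therefore per length.

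P450 enzymes are heme proteins that use molecular oxygen and electrons to insert an oxygen atom into a substrate. Most sit in the endoplasmic reticulum and receive electrons from the reductase Por. A few sit in mitochondria and receive them from ferredoxin and its reductase. Liver makes the largest variety of these enzymes, while fat cells are better known for members that act on fatty acids, oxysterols, retinoic acid and steroid hormones.

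Control 1, control 2, CIH 1 and CIH 2 were deposited as gene tables with 54532 genes, and control 3 and CIH 3 as transcript tables in which gene IDs recur. Entries of the same ID were summed. FPKM steps in the gene tables corresponded to between 25733900 and 27991200 fragments per library, while the depth behind control 3 and CIH 3 is unknown. Levels of the 2 kinds of table are not comparable, so replicates 1 and 2 were compared with each other and the replicate 3 pair was read apart. White adipocyte markers (12 genes) summed to between 6915 and 8873 FPKM in the gene tables, but to 28328 in control 3 and 579 in CIH 3. Fibroblast and preadipocyte markers (10 genes) summed to between 368 and 577 FPKM in the gene tables, 836 in control 3 and 5006 in CIH 3. Of the adipocyte markers, 11 of 11 tested were at least 2-fold lower in CIH 3 than in control 3, and 9 of 9 tested fibroblast markers were at least 2-fold higher. Of all tested genes, 11.8% were at least 2-fold lower in that pair and 21.8% higher. In replicates 1 and 2, 6 of 11 tested adipocyte markers fell and 0 rose at an adjusted p under 0.05. The other 5 (Adipoq, Fabp4, Plin1, Cidec and Pnpla2) were not called. Of 9 tested fibroblast markers, 6 rose and 2 fell, beside 18.2% higher and 20.9% lower among all tested genes. Lep, a defining adipocyte hormone gene, stayed at or below 0.217 FPKM in every library. Mitochondrial-encoded genes took 43.7% of the total in control 3 and 22.4% in CIH 3, against 11.2% to 16.3% in the gene tables. The part of this difference in cell markers in any P450 result was not tested.

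**Figure D1:**
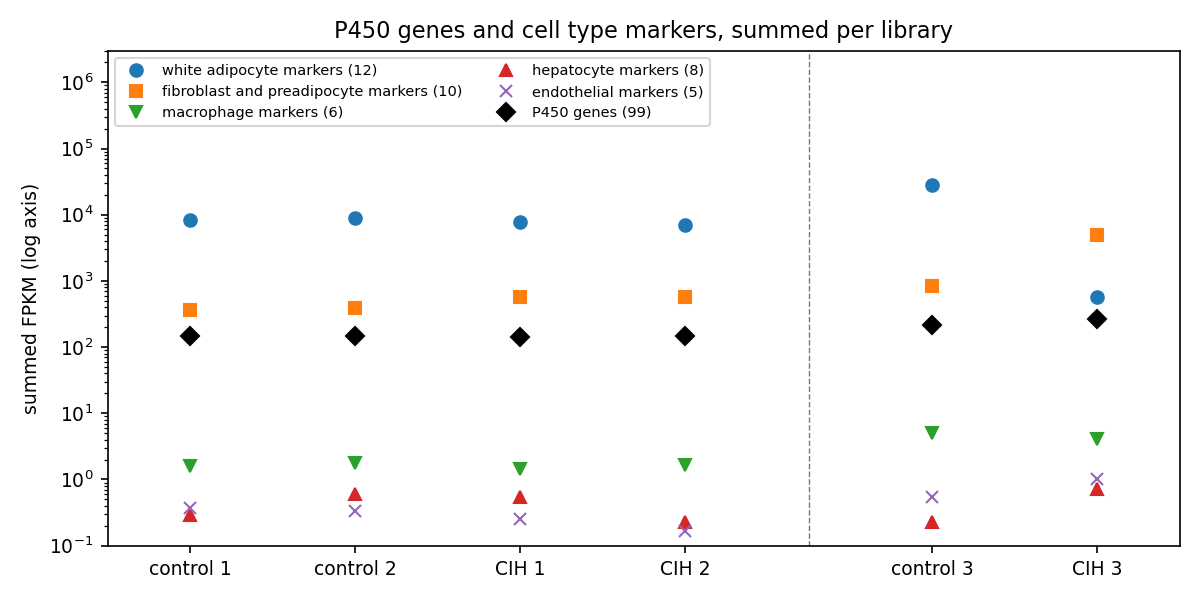
Summed FPKM (log axis) of the 99 P450 genes and of 5 marker lists in each library, with the number of genes of each list in brackets and a dashed line between the gene tables and the transcript tables. The white adipocyte sum is 28328 FPKM in control 3 and 579 in CIH 3, while hepatocyte and endothelial markers stay near or below 1 FPKM in all 6 libraries.

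Markers of other cells that make P450 enzymes were measured in the same tables. The 8 hepatocyte markers summed to between 0.229 and 0.711 FPKM, with Fgb listed at 0 in every library and Alb at or below 0.144. The 5 endothelial markers summed to between 0.168 and 1.02 FPKM. The 6 macrophage markers summed to between 1.45 and 4.95 FPKM, of which Cd68 made 1.31 to 1.73 in the gene tables and 4.56 in control 3, and Lyz2 2.64 in CIH 3. Adgre1 was listed at 0 everywhere and Ptprc did not exceed 0.00199. Bulk RNA cannot tell fewer cells of a type from less RNA per cell.

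The stretches before the transcription start of 5 members are printed because they carry the largest changes or the highest level described below. Cyp2e1 and Cyp2ab1 fell most in replicates 1 and 2, Cyp4b1 and Cyp26b1 rose most, and Cyp1b1 had the highest level. They come from RefSeq (build GRCm38.p6), 5′ to 3′ on the gene's own strand, and were shortened where the GENCODE gene reaches further upstream than the RefSeq start. Capitals mark any match on either strand to GCGTG (the core of the aryl hydrocarbon receptor site), ACGTG (the core of the hypoxia-inducible factor site), CCAAT (the CCAAT box), TATAAA (the TATA box), TTGCNNAA (a form of the C/EBP site) or the PPAR-type direct repeat of AGGTCA with 1 base between.
Cyp2e1 (chr7:140763569-140763738, plus strand): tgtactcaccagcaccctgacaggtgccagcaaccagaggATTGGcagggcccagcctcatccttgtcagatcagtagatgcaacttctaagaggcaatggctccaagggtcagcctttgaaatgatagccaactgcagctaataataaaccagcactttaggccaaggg
Cyp2ab1 (chr16:20325405-20325654, minus strand): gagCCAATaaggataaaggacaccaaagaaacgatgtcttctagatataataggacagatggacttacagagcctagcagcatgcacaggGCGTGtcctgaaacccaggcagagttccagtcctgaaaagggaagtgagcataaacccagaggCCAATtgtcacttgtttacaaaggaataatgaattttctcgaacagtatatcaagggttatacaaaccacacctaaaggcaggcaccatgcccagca
Cyp4b1 (chr4:115647724-115647971, minus strand): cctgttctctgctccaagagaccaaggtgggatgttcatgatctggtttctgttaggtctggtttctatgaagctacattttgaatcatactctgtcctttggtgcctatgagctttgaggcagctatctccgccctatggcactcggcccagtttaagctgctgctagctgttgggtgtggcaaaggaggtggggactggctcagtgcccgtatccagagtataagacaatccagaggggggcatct
Cyp26b1 (chr6:84593909-84594060, minus strand): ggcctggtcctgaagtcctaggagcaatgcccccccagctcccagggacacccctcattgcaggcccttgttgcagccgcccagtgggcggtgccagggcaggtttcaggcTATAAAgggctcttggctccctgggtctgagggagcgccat
Cyp1b1 (chr17:79715062-79715311, minus strand): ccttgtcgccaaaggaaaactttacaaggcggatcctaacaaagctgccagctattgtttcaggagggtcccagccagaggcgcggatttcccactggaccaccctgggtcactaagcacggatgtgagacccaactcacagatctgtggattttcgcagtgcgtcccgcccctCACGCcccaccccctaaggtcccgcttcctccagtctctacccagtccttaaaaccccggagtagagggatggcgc

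Over the full 250 bases before the RefSeq start, Cyp1b1 held 1 GCGTG on the minus strand, beginning 76 bases before the start. Cyp2e1 held TATAAA beginning 31 bases before the start, ACGTG next to it at 36 bases, and CCAAT on the minus strand at 68 and 210 bases, and only the last of these lies in the printed stretch. Cyp26b1 held TATAAA at 139 bases. Cyp2ab1 held CCAAT at 97 and 247 bases and GCGTG at 160 bases. Cyp4b1 held none of the 6 motifs. Of 32851 promoters of this length in the RefSeq table, 28.2% held GCGTG, 16.6% ACGTG, 33.8% CCAAT, 12.4% TATAAA, 9.56% TTGCNNAA and 0.0335% the direct repeat. Promoters were found for 17 of the 22 members named below. Of these 17, GCGTG occurred in 8, ACGTG in 4, CCAAT in 7, TATAAA in 4, TTGCNNAA in 3 and the direct repeat in 0. GCGTG and ACGTG share their last 4 letters, and a GCGTG match cannot be assigned to the aryl hydrocarbon receptor alone. The ACGTG count therefore does not cover every possible hypoxia-inducible factor core. A match is a run of letters, not a bound site.

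Most of the family was listed at or near 0. Of the 99 genes, 22 reached 1 FPKM in at least 1 library, 41 stayed between 0 and 1 FPKM, and 36 were listed at 0 in all 6 libraries. The level reached 1 FPKM in every library for 10 members, among them Cyp1b1, Cyp4f17, Cyp20a1 and Cyp4v3. By role, 1 of 3 CYP1 genes, 10 of 48 CYP2 genes, 0 of 9 CYP3 genes, 6 of 20 CYP4 genes and the single CYP20 gene passed 1 FPKM. So did 3 of 12 genes of steroid and bile acid metabolism and 1 of 6 genes of vitamin D and retinoid metabolism. Just inside the line were Cyp2s1 (highest value 1.17 FPKM) and Cyp4a10 (1.42), and just outside it Cyp11a1 (0.911) and Cyp2c23 (0.886).

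**Figure D2:**
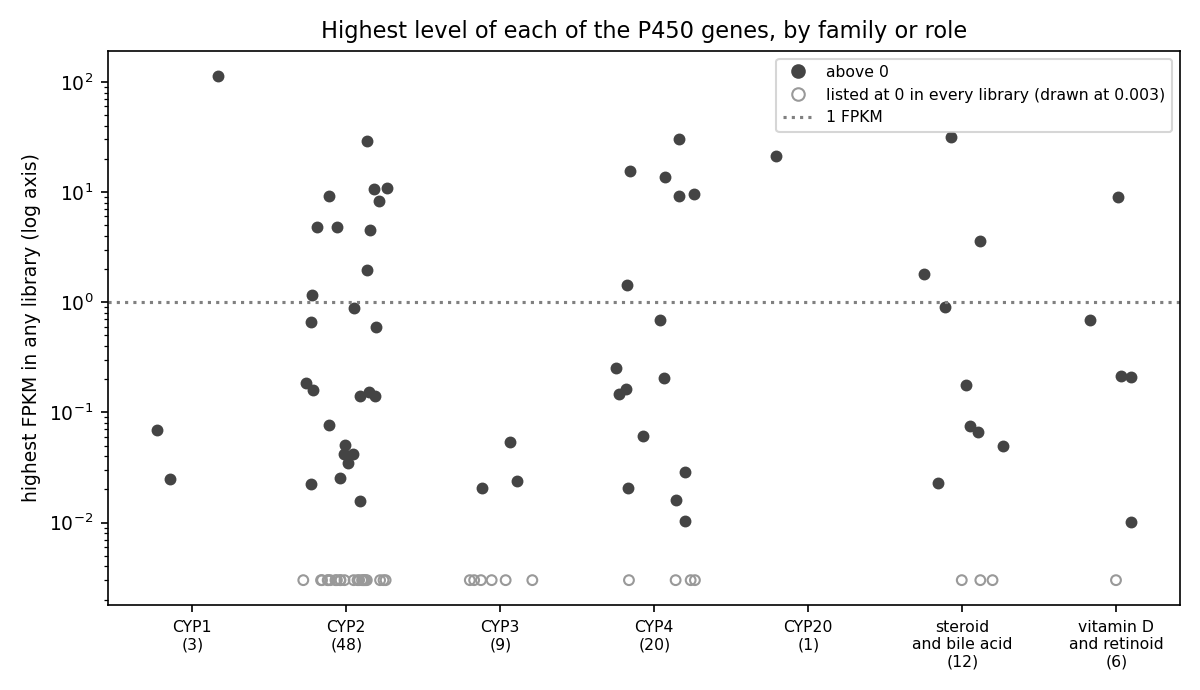
The highest FPKM of each of the 99 P450 genes in any library (log axis), by family or role, with the number of genes in brackets. Open circles are the 36 genes listed at 0 in every library, drawn below the axis range of the others, and the dotted line at 1 FPKM has 22 genes above it.

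The CYP3A enzymes, the main drug-oxidising P450s of liver, did not exceed 0.0538 FPKM. Cyp1a1 and Cyp1a2, the classical targets of the aryl hydrocarbon receptor, peaked at 0.0691 and 0.0250 FPKM. Aromatase (Cyp19a1), both aldosterone and corticosterone synthases (Cyp11b1, Cyp11b2) and the vitamin D hydroxylase Cyp2r1 were listed at 0 in all 6 libraries. Cyp7a1 and Cyp8b1, which make bile acids in liver, reached 0.0658 and 0.0756 FPKM. Of the 77 members below 1 FPKM, 60 had at most 3 fragments in each gene table. For a gene with 2000 bases of exon, 3 fragments equal 0.0536 to 0.0583 FPKM, so a count of 0 in such a gene allows a level of up to that, by counting error alone.

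A further 6 members lay between 0.3 and 1 FPKM at their highest and were too low for the test. Cyp11a1, which cleaves the cholesterol side chain at the start of steroid synthesis, was 0.291 and 0.431 FPKM in control 1 and 2, 0.175 and 0.167 in CIH 1 and 2, 0.911 in control 3 and listed at 0 in CIH 3. Cyp27b1, which activates vitamin D, was 0.513 and 0.208 FPKM in control 1 and 2, 0.238 and 0.382 in CIH 1 and 2, 0.192 in control 3 and 0.695 in CIH 3, with overlapping groups. Cyp2d22 was 0.427 and 0.612 FPKM in control 1 and 2, 0.108 and 0.0746 in CIH 1 and 2, but 0.0487 in control 3 and 0.664 in CIH 3. The other 3 were Cyp2c23, Cyp2t4 and Cyp4a14.

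The comparison asked which P450 messenger RNAs differ between CIH and control cells. The test, with limma, took in 10976 genes whose 6-library mean reached 1 FPKM, and 19 of the 99 members were among them. Fold changes below are on the log2(FPKM + 1) scale unless given from fragments. They are smaller than ratios of FPKM, most so at low levels. In replicates 1 and 2, 6 rose, 6 fell and 7 were not called at an adjusted p under 0.05. Of all tested genes 39.1% were called (18.2% higher, 20.9% lower), and the members' share was not tested against that background. With all libraries scaled to the same total, 4 rose and 8 fell. The median log2 change was −0.21 for the 19 members and −0.01 for all tested genes. The 4 gene tables did not overlap between groups for 18 of the 19 members and for 74.0% of all tested genes. The summed level of all 99 members was 149 and 148 FPKM in control 1 and 2, 142 and 145 in CIH 1 and 2, 218 in control 3 and 262 in CIH 3. It was thus slightly lower in CIH in the gene tables and higher in CIH in the transcript tables.

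**Figure D3:**
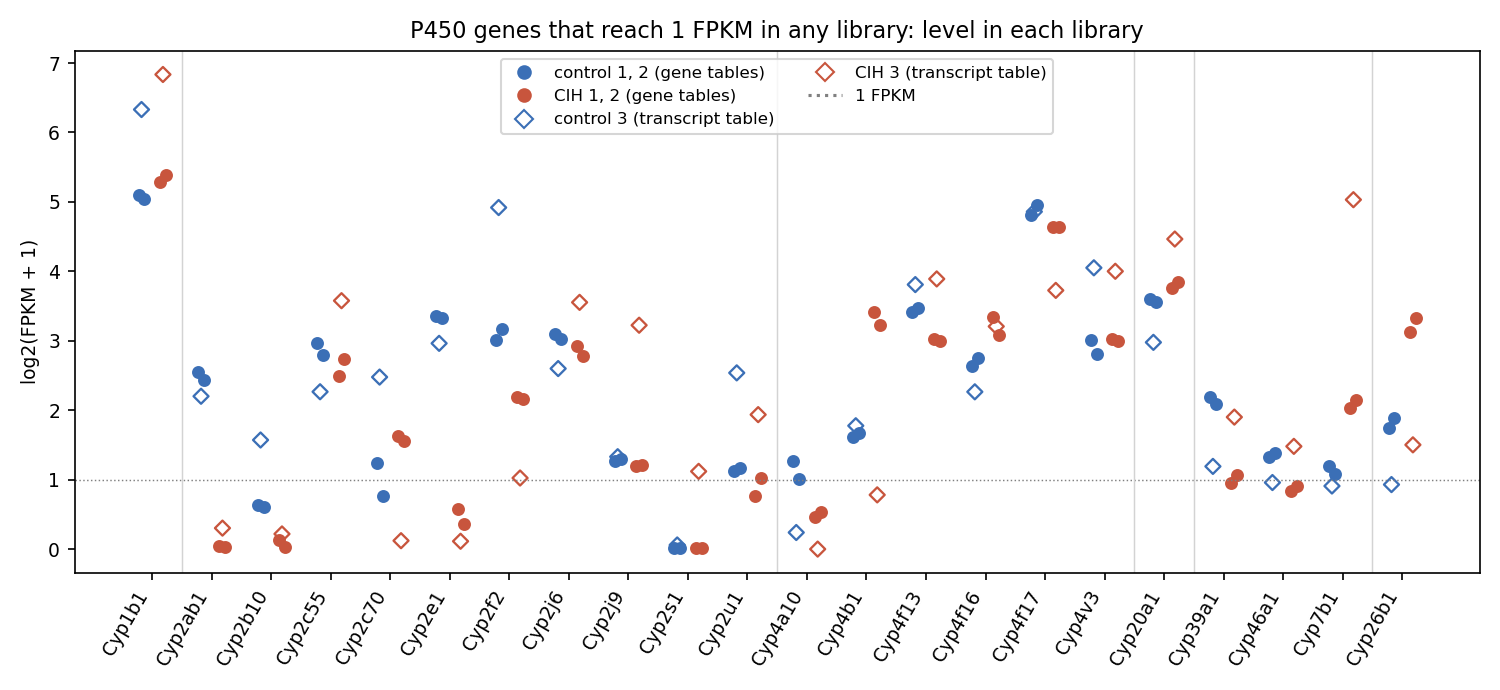
Level of each of the 22 P450 genes that reach 1 FPKM, as log2(FPKM + 1), in each library. Filled circles are gene tables, open diamonds are transcript tables, control is blue and CIH red, and vertical lines part the roles. Cyp1b1 is highest in all 6 libraries, and the CIH points of Cyp2e1 and Cyp2ab1 lie below 1 FPKM in both kinds of table.

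Cyp1b1 (chromosome 17, 79701537 to 79715061, minus strand, GRCm38), which oxidises estrogens and polycyclic aromatic hydrocarbons, was the most abundant P450. It was 33.2 and 32.0 FPKM in control 1 and 2, 38.2 and 40.8 in CIH 1 and 2, 79.5 in control 3 and 113 in CIH 3. Every CIH value lay above the control values of the same kind of table. It made up 21.6% to 22.3% of the summed P450 level in control 1 and 2, 26.9% and 28.2% in CIH 1 and 2, 36.5% in control 3 and 43.3% in CIH 3. Cyp1b1 rose 1.20-fold in replicates 1 and 2 (log2 change 0.27, SE 0.0702, adjusted p = 0.0373). The call was lost with a replicate block (adjusted p = 0.0805), with scaling to the same total (adjusted p = 0.191) and without any 1 of the 4 gene tables (adjusted p = 0.0829 to 0.159). The call was also lost with totals that left out mitochondrial-encoded genes (adjusted p = 0.104). Over all alternatives the adjusted p of Cyp1b1 ran from 0.0296 to 0.191.

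Among CYP2 genes, Cyp2e1 and Cyp2ab1 stood out by size. Both stayed below 1 FPKM in every CIH library, so they entered the test through their control values. Cyp2e1 (chromosome 7, 140763739 to 140774987), the ethanol-inducible P450 that also oxidises acetone and acetaminophen, was 9.27 and 9.01 FPKM in control 1 and 2, against 0.496 and 0.287 in CIH 1 and 2. It was 6.80 FPKM in control 3 and 0.0815 in CIH 3, so that CIH lay far below control within each kind of table. Its log2 change was −2.87 (SE 0.0985, adjusted p = 0.000463) in replicates 1 and 2. The replicate 3 pair gave −2.85. As fragments, 1059 in control 1 and 2 stood against 45 in CIH 1 and 2, which is 23.5-fold lower after correction for depth (exact 95% interval 17.4 to 32.4, counting error only).

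Cyp2ab1 (chromosome 16, 20308387 to 20325404, minus strand) was 4.86 and 4.43 FPKM in control 1 and 2, 0.0365 and 0.0232 in CIH 1 and 2, 3.60 in control 3 and 0.233 in CIH 3. Within each kind of table CIH again lay far below control. Its log2 change was −2.45 (SE 0.0656, adjusted p = 0.000392) and −1.90 in the replicate 3 pair. Behind the gene-table values stood 393 and 390 fragments in control 1 and 2, but 3 in CIH 1 and 2 in CIH 2. That makes the level 156-fold lower (exact 95% interval 66.7 to 482, counting error only), a size that the log2(FPKM + 1) scale compresses to 5.48-fold. None of its 50-base exon windows occurs in a transcript of another gene, against 3.87% of the windows of Cyp2e1.

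Cyp2f2 (chromosome 7, 27119909 to 27133660), the lung enzyme that activates naphthalene, was 7.06 and 8.03 FPKM in control 1 and 2, 3.57 and 3.47 in CIH 1 and 2, 29.3 in control 3 and 1.03 in CIH 3. On the log2(FPKM + 1) scale the fall in replicates 1 and 2 was 1.89-fold (adjusted p = 0.00317), while CIH 3 was 14.9-fold below control 3. Annotated genes on the opposite strand overlap its exons and also those of Cyp2c55, Cyp2s1 and Cyp2u1. The sources used here do not state whether fragments were counted by strand.

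Cyp2c70, which makes muricholic acids in mouse liver, was 1.35 and 0.703 FPKM in control 1 and 2, against 2.08 and 1.95 in CIH 1 and 2. In the other kind of table it was 4.57 FPKM in control 3 and 0.0875 in CIH 3, the opposite order. Its rise in replicates 1 and 2 (1.51-fold, adjusted p = 0.0399) was lost without CIH 1 (adjusted p = 0.145), without CIH 2 (adjusted p = 0.108) and under 4 of the other alternatives. Its adjusted p ran from 0.00252 to 0.145 over the alternatives.

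The other CYP2 members that were tested were not called. Cyp2c55, which hydroxylates arachidonic acid, was 6.80 and 5.93 FPKM in control 1 and 2, 4.62 and 5.64 in CIH 1 and 2, 3.81 in control 3 and 10.9 in CIH 3 (adjusted p = 0.138). Cyp2j6, of a subfamily of fatty acid epoxygenases, was 7.56 and 7.16 FPKM in control 1 and 2, 6.56 and 5.89 in CIH 1 and 2, 5.06 in control 3 and 10.7 in CIH 3 (adjusted p = 0.116, and adjusted p = 0.0411 with scaling to the same total). Its neighbour Cyp2j9 was between 1.29 and 1.47 FPKM in the 4 gene tables (adjusted p = 0.288), 1.52 in control 3 and 8.35 in CIH 3. All 3 were slightly lower in CIH 1 and 2 and higher in CIH 3. Cyp2u1, which hydroxylates long-chain fatty acids, was 1.18 and 1.25 FPKM in control 1 and 2, 0.700 and 1.03 in CIH 1 and 2, 4.81 in control 3 and 2.83 in CIH 3 (adjusted p = 0.0934, and adjusted p = 0.0368 without CIH 2).

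Cyp2b10 and Cyp2s1 reached 1 FPKM in 1 library each and were too low to be tested. Cyp2b10, the classical target of the xenobiotic receptor CAR, was 0.552 and 0.524 FPKM in control 1 and 2, 0.0905 and 0.0173 in CIH 1 and 2, 1.97 in control 3 and 0.163 in CIH 3. CIH was below control within each kind of table, on 61 fragments in control 1 and 2 and 6 in CIH 1 and 2, and 8.70% of its exon windows occur in other genes. Cyp2s1 had at most 2 fragments in any gene table, 0.0421 FPKM in control 3 and 1.17 in CIH 3.

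**Figure D4:**
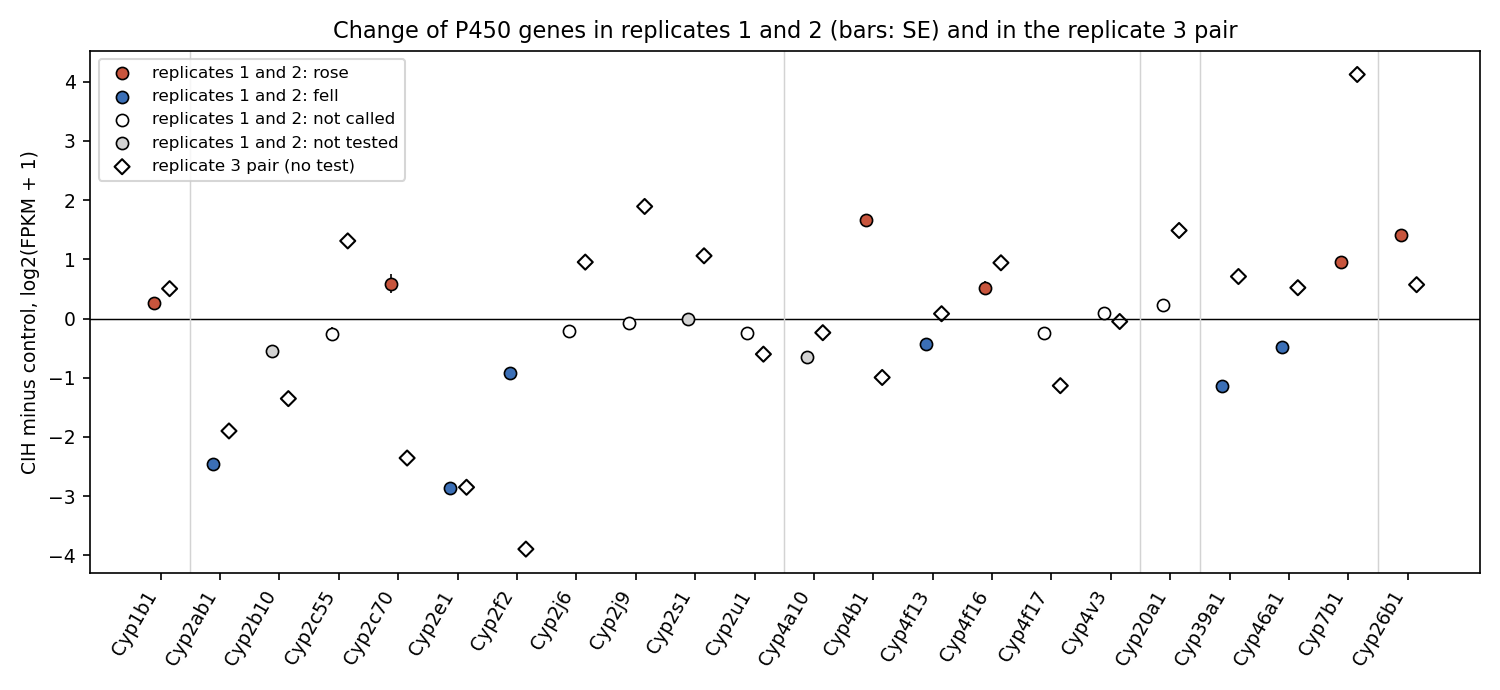
Change of each of the 22 P450 genes (CIH minus control on the log2(FPKM + 1) scale): circles for replicates 1 and 2 with SE bars, coloured by call, and diamonds for the replicate 3 pair, which has no test. Cyp2e1 lies at −2.87 and −2.85, whereas Cyp4b1 lies at 1.67 and −1.0 and Cyp7b1 at 0.95 and 4.12.

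CYP4 enzymes hydroxylate the far end of fatty acids and eicosanoids. Cyp4b1 (chromosome 4, 115624725 to 115647723, minus strand), known from lung for activating plant and industrial toxins, was 2.07 and 2.20 FPKM in control 1 and 2, against 9.66 and 8.37 in CIH 1 and 2. It rose 3.19-fold (log2 change 1.67, SE 0.0977, adjusted p = 0.00102), the largest rise of the family in replicates 1 and 2. The order was reversed in the transcript tables, with 2.43 FPKM in control 3 and 0.718 in CIH 3.

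In the same 541 kb stretch of chromosome 4, which holds 10 members, Cyp4a10 was the other gene to reach 1 FPKM. Cyp4a10, a fatty acid hydroxylase induced through PPAR alpha, was 1.42 and 1.02 FPKM in control 1 and 2, 0.381 and 0.449 in CIH 1 and 2, 0.180 in control 3 and listed at 0 in CIH 3. Its CIH values lay below its control values in each kind of table, but it was not tested, and 29.8% of its exon windows occur in other genes, mostly Cyp4a32.

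Of the Cyp4f genes, whose products inactivate leukotrienes, 8 lie within 495 kb of chromosome 17, and 3 of these reached 1 FPKM. Cyp4f13 was 9.70 and 10.1 FPKM in control 1 and 2, 7.12 and 7.005 in CIH 1 and 2, 13.0 in control 3 and 13.8 in CIH 3. The decrease in replicates 1 and 2 was 1.35-fold (adjusted p = 0.0117). The call was lost without CIH 1 (adjusted p = 0.0687) or CIH 2 (adjusted p = 0.0669), with a range of 0.0015 to 0.0687 over the alternatives. Cyp4f16 was 5.24 and 5.73 FPKM in control 1 and 2, 9.12 and 7.51 in CIH 1 and 2, 3.81 in control 3 and 8.24 in CIH 3. It rose 1.43-fold (adjusted p = 0.0233), which was lost without control 1 (adjusted p = 0.0649) or CIH 1 (adjusted p = 0.106), with a range of 0.00117 to 0.106 over the alternatives. Cyp4f16 shares 16.3% of its exon windows with Cyp4f37, which did not exceed 0.0606 FPKM.

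Cyp4f17 was the second most abundant P450 in control 1 and 2, at 27.1 and 30.1 FPKM in control 1 and 2, 23.8 and 23.96 in CIH 1 and 2, 28.04 in control 3 and 12.2 in CIH 3. Its CIH values lay below the matching controls throughout, but it was not called (adjusted p = 0.0573, and adjusted p = 0.0219 to 0.194 over the alternatives). Cyp4v3, the counterpart of the human retinal disease gene CYP4V2, was 7.08 and 6.02 FPKM in control 1 and 2, 7.12 and 6.97 in CIH 1 and 2, 15.6 in control 3 and 15.01 in CIH 3. Its groups overlapped (log2 change 0.094, adjusted p = 0.48, and −0.0081 with scaling to the same total). A second annotated gene overlaps its exons on the same strand.

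Of the 3 genes of steroid and bile acid metabolism above 1 FPKM, 1 rose and 2 fell in replicates 1 and 2, and all 3 were higher in CIH 3 than in control 3. Cyp7b1 (chromosome 3, 18071950 to 18243338, minus strand), which hydroxylates oxysterols and steroids, was 1.29 and 1.12 FPKM in control 1 and 2, 3.07 and 3.45 in CIH 1 and 2, 0.877 in control 3 and 31.7 in CIH 3. CIH lay above control within each kind of table. It rose 1.93-fold in replicates 1 and 2 (log2 change 0.95, SE 0.0833, adjusted p = 0.00241). On the log2(FPKM + 1) scale, which compresses low levels, CIH 3 stood 17.4-fold above control 3. The fibroblast marker sum in this pair was 5006 against 836 FPKM.

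Cyp46a1, which converts cholesterol to a hydroxysterol for export, was 1.501 and 1.60 FPKM in control 1 and 2, 0.791 and 0.876 in CIH 1 and 2, 0.943 in control 3 and 1.79 in CIH 3. It fell 1.39-fold in replicates 1 and 2 (adjusted p = 0.00518). Cyp39a1 (chromosome 17, 43667425 to 43751431), which acts on the product of Cyp46a1, was 3.58 and 3.28 FPKM in control 1 and 2, 0.939 and 1.098 in CIH 1 and 2, 1.28 in control 3 and 2.73 in CIH 3. It fell 2.19-fold (log2 change −1.13, SE 0.0787, adjusted p = 0.00142). For both genes the replicate 3 pair ran the other way, with CIH 3 above control 3.

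Cyp26b1 (chromosome 6, 84571414 to 84593908, minus strand), which degrades retinoic acid, was 2.34 and 2.71 FPKM in control 1 and 2, 7.70 and 9.04 in CIH 1 and 2, 0.904 in control 3 and 1.83 in CIH 3. It rose 2.66-fold (log2 change 1.41, SE 0.111, adjusted p = 0.00184), and CIH was also the higher of the replicate 3 pair. The related Cyp26a1 stayed at or below 0.211 FPKM. Cyp20a1, an enzyme without a settled substrate, was 11.1 and 10.8 FPKM in control 1 and 2, 12.6 and 13.4 in CIH 1 and 2, 6.88 in control 3 and 21.1 in CIH 3 (adjusted p = 0.0622). Its CIH values were above its control values within each kind of table, and the median-of-ratios scaling gave adjusted p = 0.0495.

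The replicate 3 pair was read by a 2-fold rule on the log2(FPKM + 1) scale, which is stricter than 2-fold in FPKM. By this rule 4 of the 19 tested members were higher in CIH (Cyp7b1, Cyp2j9, Cyp20a1, Cyp2c55). Another 5 were lower (Cyp2f2, Cyp2e1, Cyp2c70, Cyp2ab1, Cyp4f17). Of all tested genes 33.6% were that far apart, 21.8% higher and 11.8% lower. The members' counts became 7 higher and 6 lower with a pseudocount of 0.1, and 6 and 6 with 0.5. They became 8 higher and 4 lower with scaling to the same total, and 6 and 4 with totals that left out mitochondrial-encoded genes. The median change was 0.50 for the members and 0.26 for all tested genes, and the latter became 0.84 with scaling to the same total and −0.00 by the median of ratios. Each group has 1 library here, so the differences have no replicate check and no p-value.

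Of the 12 members called in replicates 1 and 2, Cyp2ab1, Cyp2e1, Cyp2f2 and Cyp7b1 also passed the 2-fold rule in the same direction in the replicate 3 pair. That makes 4 of the 19 tested members beside 9.89% of all tested genes, and 4 of 12 called members beside 1086 of 4292 called genes. Cyp2c70 was at least 2-fold apart the other way, 1 of 19 tested members beside 6.01% of all tested genes and 1 of 12 called members beside 660 of 4292 called genes. Cyp4b1 lay at 1.99-fold the other way on the log2(FPKM + 1) scale. It passed 2-fold with a pseudocount of 0.1 or 0.5, by the median of ratios and by the upper quartile. With scaling to the same total its log2 change was −0.637. Cyp4f16 passed 2-fold in the same direction with a pseudocount of 0.1 or 0.5. It also did so with scaling to the same total and with totals that left out mitochondrial-encoded genes. Cyp1b1 passed it in the same direction with scaling to the same total. Cyp39a1 passed it the other way with that scaling or a pseudocount of 0.1. The direction differed between the kinds of table for 5 of the 12, against 45.2% of all called genes. When all 6 libraries were fitted together and the kind of table entered as a covariate, Cyp2e1 (log2 change −2.86, adjusted p = 0.0268) and Cyp2ab1 (−2.27, adjusted p = 0.0361) were called, both lower in CIH, where 0.574% of all tested genes were called (0.182% higher, 0.392% lower). Both genes had passed the filter through their control values, the group in which they are high. This count of 2 was 0 with a replicate block, 0 without control 1, control 2, CIH 1 or CIH 2, and 12 without control 3 or CIH 3, when the fit comes down to replicates 1 and 2.

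Genes that serve P450 enzymes were read from the same fit, from 5 lists with 70 genes in the files, of which 44 were tested. In replicates 1 and 2, 9 rose and 9 fell, or 8 and 16 with scaling to the same total, beside 39.1% called among all tested genes (18.2% higher, 20.9% lower). These 18 of 44 are a share near that background, which also stands beside each list's count below. Ptgs2, counted among the 9 that rose, passed the filter only through CIH 1 and CIH 2. The 18 calls became 8 without CIH 1 and 11 without control 1. Of 12 tested redox partners, 3 rose and 0 fell (background 18.2% higher, 20.9% lower). Fdx1l, counted among these 12, did not exceed 0.161 FPKM in the gene tables. It passed the filter through control 3 (18.3 FPKM) and CIH 3 (19.8). Por, the reductase that feeds all microsomal P450s, was 142 and 160 FPKM in control 1 and 2, 127 and 111 in CIH 1 and 2 (adjusted p = 0.0604), 281 in control 3 and 47.6 in CIH 3. Its CIH values lay below its control values within each kind of table. Cyb5a, the cytochrome b5 that donates a second electron, had means of 111 ± 6.28 in control and 188 ± 24.4 FPKM in CIH (SD, n = 2). It rose 1.68-fold (adjusted p = 0.0091) but was 2.85-fold lower in CIH 3 than in control 3. Cyb5r3, its reductase, rose 1.43-fold (adjusted p = 0.0131) but was 213 FPKM in control 3 and 164 in CIH 3. In the mitochondrial chain, Fdxr rose 1.40-fold (adjusted p = 0.0189) but was 6.24 FPKM in control 3 and 5.75 in CIH 3. The ferredoxin Fdx1 was 27.3 ± 2.01 FPKM in control 1 and 2 and 24.8 ± 2.39 in CIH 1 and 2 (SD, n = 2, adjusted p = 0.313). It was 54.8 FPKM in control 3 and 23.1 in CIH 3.

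Of 12 tested genes of heme synthesis and breakdown, 2 rose and 4 fell in replicates 1 and 2 (background 18.2% higher, 20.9% lower). Alas1, which sets the pace of heme synthesis, was 40.9 and 40.3 FPKM in control 1 and 2, against 56.8 and 54.7 in CIH 1 and 2 (1.36-fold higher, adjusted p = 0.00754). In the other kind of table it was 107 FPKM in control 3 and 12.4 in CIH 3, the opposite order. Alad, the next enzyme, had means of 92.8 ± 0.955 in control and 45.6 ± 2.9 FPKM in CIH (SD, n = 2). The fall was 2.02-fold (adjusted p = 0.00158), and CIH 3 stood 5.51-fold below control 3. Hmox1, the inducible heme oxygenase, rose 1.42-fold (adjusted p = 0.0143), while the constitutive Hmox2 fell 1.60-fold (adjusted p = 0.00394). Urod fell 1.27-fold and Fech 1.17-fold (adjusted p = 0.0179 and 0.0427), and the call of Fech was lost with a replicate block (adjusted p = 0.0975).

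**Figure D5:**
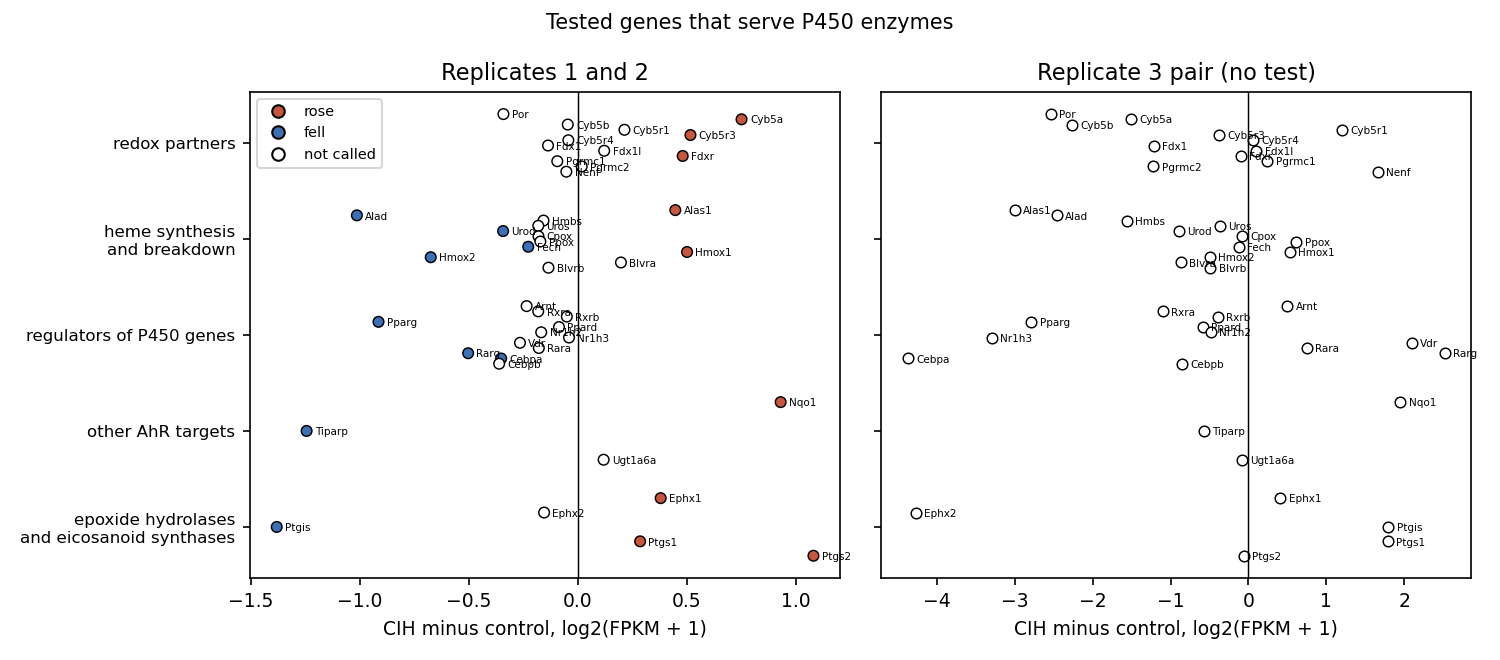
Change (CIH minus control, log2(FPKM + 1)) of the tested genes of 5 lists that serve P450 enzymes, each point a named gene, in replicates 1 and 2 (left, coloured by call) and in the replicate 3 pair (right, no test, wider axis). Alas1 and Cyb5a lie above 0 on the left and below 0 on the right, while Alad and Por lie below 0 in both.

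Among 12 tested regulators of P450 genes, 0 rose and 3 fell in replicates 1 and 2 (background 18.2% higher, 20.9% lower). These were Pparg (1.88-fold, adjusted p = 0.00383), Rarg, a retinoic acid receptor (1.42-fold, adjusted p = 0.0193), and Cebpa (1.28-fold, adjusted p = 0.0275, and adjusted p = 0.0771 with a replicate block). Rarg was 9.498 FPKM in control 3 and 59.2 in CIH 3, the opposite order. Pparg and Cebpa are also on the adipocyte marker list. Ahr, the aryl hydrocarbon receptor, averaged 0.354 ± 0.115 FPKM in control 1 and 2 and 0.356 ± 0.0993 in CIH 1 and 2 (SD, n = 2), against 0.346 in control 3 and 3.80 in CIH 3, and was too low to be tested. Its partner Arnt was 8.59 ± 0.287 FPKM in control 1 and 2 and 7.15 ± 0.219 in CIH 1 and 2 (SD, n = 2, adjusted p = 0.0661). The replicate 3 pair of Arnt ran the other way, at 36.1 FPKM in control 3 and 51.5 in CIH 3. Of 3 tested other targets of the aryl hydrocarbon receptor, 1 rose and 1 fell (background 18.2% higher, 20.9% lower). Nqo1 rose 1.91-fold (adjusted p = 0.00273), Tiparp fell 2.37-fold (adjusted p = 0.00137) and Ugt1a6a was not called. Ugt1a6a did not exceed 0.270 FPKM in the gene tables and passed the filter through control 3 (37.5 FPKM) and CIH 3 (35.3). The xenobiotic receptors Nr1i2 and Nr1i3 did not exceed 0.107 and 0.252 FPKM.

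Of 5 tested epoxide hydrolases and eicosanoid synthases, 3 rose and 1 fell in replicates 1 and 2 (background 18.2% higher, 20.9% lower). This share was not tested against the background. Ptgs2, the inducible cyclooxygenase, had means of 0.410 ± 0.0274 in control and 1.99 ± 0.223 FPKM in CIH (SD, n = 2), a ratio of 4.85. On the log2(FPKM + 1) scale it rose 2.12-fold (adjusted p = 0.0013), but it was 0.776 FPKM in control 3 and 0.706 in CIH 3. Ptgs2 passed the filter only through CIH 1 (2.15 FPKM) and CIH 2 (1.83), the group in which it was called higher. Its place among the 3 that rose therefore depends on that group. Ptgis, prostacyclin synthase and itself a member of the P450 superfamily under another symbol, had means of 34.2 ± 0.91 in control and 12.6 ± 1.56 FPKM in CIH (SD, n = 2) and fell 2.60-fold (adjusted p = 0.00146). Ptgis was 5.48 FPKM in control 3 and 21.5 in CIH 3, the opposite order. Ephx1, the microsomal epoxide hydrolase, rose 1.30-fold (adjusted p = 0.0317), and Ptgs1, the constitutive cyclooxygenase, rose 1.22-fold (adjusted p = 0.0233). Both calls were lost with a replicate block (adjusted p = 0.0513 and 0.0587). Ephx2, which opens fatty acid epoxides made by P450s, was not called (adjusted p = 0.188) but was 661 FPKM in control 3 and 33.2 in CIH 3.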

How the data were processed

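Messenger RNA of 6 libraries was deposited by the authors as FPKM per gene or per repeated entry, a unit inferred from the values, since column headers name samples alone. Per the submitters' processing notes, GRCm38, featureCounts 1.5.0-p3 and DESeq 1.8.3 were used, in roles not stated. No source used here names an aligner. In the gene tables, FPKM times exon length lay within 0.05 of a whole fragment for 98.4% to 98.6% of genes under 50 fragments (10% by chance). Fragment counts of members come from these steps, and those of Cyp1b1, Cyp4f13, Cyp4f16 and Cyp4f17 were not whole.

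Values were taken as log2(FPKM + 1), so fold changes on that scale understate the change of low genes. Control 1 and 2 were compared with CIH 1 and 2 by limma 3.58.1 in R 4.3.3 (two-sided, trended empirical Bayes) for genes whose 6-library mean reached 1 FPKM, with Benjamini-Hochberg adjustment over all of them. The script was tested on simulated data. Tables and figures used Python 3.11.15. Every member reaching 1 FPKM in a library is named. Of the partner lists, the naming rule covers called genes and 7 others (Por, Fdx1, Fdxr, Cyb5a, Alas1, Ahr, Arnt). Ephx2, Nr1i2, Nr1i3, Ugt1a6a, Fdx1l, single cell-type markers and the members below 1 FPKM were singled out after their values were seen. The members and lists were chosen with earlier results of these data known. Exon windows are 50 bases of any GENCODE transcript.

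Deviations from the group means correlated between same-numbered libraries at 0.529, 0.587 and 0.581 over all 6 libraries. These values come from the data and not from the labels, and within the gene tables alone the correlation was −0.178. Control 1 and 2 differed by more than sampling noise (mean chi-square 15.3 over 12672 genes), as did CIH 1 and 2 (10.3 over 12740 genes). Alternatives covered the pseudocount, the filter, scaling, the trend, a replicate block and leaving out libraries.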

Additional observations from a re-analysis of the deposited data

Results flagged for a closer look

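For 5 of the 12 P450 genes called in replicates 1 and 2, the replicate 3 pair lay on the other side of 0, and this difference between the kinds of table was not tested. In that pair the log2 change was −1.0 for Cyp4b1 (1.67 in replicates 1 and 2) and −2.36 for Cyp2c70 (0.59). It was 0.71 for Cyp39a1 (−1.13), 0.52 for Cyp46a1 (−0.48) and 0.0815 for Cyp4f13 (−0.43). With the median-of-ratios scaling the value of Cyp4f13 became −0.19, so its opposite sign depends on scaling. Among all genes called in replicates 1 and 2, 45.2% had the opposite sign in that pair.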

How the results depend on the processing

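With a replicate block, replicates 1 and 2 gave 11 called P450 genes (5 higher, 6 lower), 14 partner genes and 3332 of all genes, and the calls lost were those of Cyp1b1 among members and Cebpa, Fech, Ephx1 and Ptgs1 among partner genes. The crossed pairing, chosen after seeing the data because the gene tables correlated at −0.178, gave 12 P450 genes, 20 partner genes and 4510 of all genes. Leaving out 1 library gave 8 to 11 P450 genes, 8 to 15 partner genes (8 without CIH 1, 11 without control 1) and 1865 to 3682 of all genes (1865 without CIH 1, 2316 without CIH 2), against 12, 18 and 4292. Without a filter, 5 P450 genes were higher and 12 lower. With scaling to the same total, 1416 of all genes were higher and 3039 lower, against 1995 and 2297. The count of 2 P450 genes in the fit of all 6 libraries was 0 with a replicate block, 0 by group alone (3 members at an unadjusted p under 0.05), 0 with scaling to the same total, 1 with totals without mitochondrial-encoded genes (added after seeing the data), and 0 to 12 with 1 library left out. In those 2 cases of 12 the fit holds 1 transcript table, which the term absorbs. Of 304 values of the 19 tested members under the alternatives, 279 kept direction and call, 17 lost the call, 6 gained it and 2 changed sign, both of Cyp4v3 (−0.0081 with scaling to the same total, −0.0071 without control 2, and −0.0071 to 0.196 with 1 library left out). Cyp2e1, Cyp2ab1, Cyp2f2, Cyp4b1, Cyp7b1, Cyp26b1, Cyp39a1 and Cyp46a1 kept their calls under every alternative run on replicates 1 and 2. Where a call was lost, the cause was not tested. Depth limits members below about 3 fragments, and control 3 and CIH 3 have unknown depth.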
